A study of Mus musculus with 18 samples.

Results

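The activator protein 1 (AP-1) genes were followed in sorted keratinocytes of mouse skin and of chemically induced skin tumors, with and without the RNA-binding protein tristetraprolin (TTP), which is encoded by Zfp36. The set held the 10 genes Fos, Fosb, Fosl1, Fosl2, Jun, Junb, Jund, Atf3, Batf and Jdp2. They were taken by gene name from the 52636 genes of the count table, without regard to how they behaved. The main contrast among them was in tumors, where Fosl1 was higher than in skin in every library, while Jun and Fosl2 were lower in every library. Of 18252 genes, 12.4% separated tumors from skin in this way. In the main test with all libraries, Fosl2 was called in no comparison of tumors with skin. Jun was called only in tumors without TTP against mock-treated skin. No member was called between genotypes at any stage, and at most 0.0284% of all genes were called there in that test. The test did not call Zfp36 itself in mock skin, so a lack of calls does not show a lack of change.

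AP-1 is a family of dimers of basic leucine zipper (bZIP) proteins that bind short palindromic DNA elements. Fos proteins must pair with a Jun protein to bind well, whereas Jun proteins can also pair with each other, and ATF3, BATF and JDP2 join the same partners. Most Fos and Jun genes are immediate early genes, which are transcribed within minutes of a growth signal and whose mRNAs are short-lived. In the epidermis AP-1 controls proliferation and differentiation genes, and it is the classical nuclear effector of phorbol esters such as TPA.

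Libraries fell into 6 groups from mice on a C57BL/6 background. The control mice were Zfp36 fl/fl, with both alleles floxed, and their littermates were Zfp36 ΔK14, named Zfp36ΔEP by the study, which carried the same floxed alleles and a Cre driven by the human keratin 14 promoter. This promoter is active in basal keratinocytes, and cells of other types in both genotypes kept floxed but intact alleles. Keratinocytes were taken from mock-treated skin, from nontumoral skin of animals given the mutagen DMBA and then repeated TPA (treated skin), and from papillomas (tumors). The treated skin was taken next to papillomas, and nothing in the labels says which treated and tumor libraries came from the same animal, so the tests took them as independent. The protocol began in young adult mice, and the labels give no age for single animals. The methods describe enzyme digestion and sorting of living cells positive for EpCAM and negative for CD45, CD140a and CD31, whereas the labels name whole skin as the source. Each group had 3 columns, but mock ΔEP replicate 3 repeated the counts of replicate 2 at every one of the 52636 genes, so it was left out, which gave 17 libraries and n = 2 in that group. Nothing in the labels ties replicates to single animals, so p-values measure the spread between libraries.

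Total counts ran from 2808550 to 9617985 per library. Levels are given in CPM (counts scaled to a common library total) on library sizes scaled by the trimmed mean of M values (TMM). To be called, a difference had to exceed 2-fold and reach an adjusted p below 0.05 in edgeR's quasi-likelihood test. Zfp36 itself was at 497 ± 302 CPM (SD, n = 3) in mock fl/fl and 27.9 ± 15.0 CPM (SD, n = 2) in mock ΔEP skin. In tumors it was at 217 ± 35.0 CPM (SD, n = 3) and 13.8 ± 4.33 CPM (SD, n = 3), and no ΔEP library reached any fl/fl library of its stage. The keratinocyte markers Epcam and Krt14 were detected in all libraries, and of 7 leukocyte markers Ptprc, Cd3e and Cd207 stayed at or under 1.51 CPM. Csf1r was found in every library, at 1.70 to 5.32 CPM, and Itgam and Lyz2 reached 3.93 and 2.715 CPM. Cd74, a chaperone of MHC class II on the same list, was at 172 CPM in treated ΔEP replicate 3 and at 5.33 to 21.1 CPM in the other skin libraries. In tumors Cd74 was at 10.7 to 28.6 CPM in fl/fl and 54.9 to 83.6 CPM in ΔEP. Replicate 1 of mock skin stood apart in both genotypes. Its Krt14 was at 604 (fl/fl) and 671 (ΔEP) CPM, against 4230 to 4982 CPM in the other mock libraries. Of 5 fibroblast markers, Dcn was higher in it, at 845 and 976 CPM against 47.1 to 97.2 CPM, whereas Pdgfra and Col3a1 were lower in it than in the other mock libraries of its genotype, at 3.66 and 106 CPM in fl/fl and 1.89 and 14.6 CPM in ΔEP. The sum of the 5 markers was between 406 and 1219 CPM in all mock libraries. Calls of members against mock skin, and most list counts, are therefore also given without mock replicate 1. Treated ΔEP replicate 1 resembled it in part, with Krt14 at 974 CPM and Dcn at 843 CPM. The other treated ΔEP libraries were at 2494 to 5335 CPM of Krt14 and 230 to 350 CPM of Dcn. Its Col3a1, at 25.3 CPM, lay between theirs. Members were also tested without this library, but list counts were not.

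TTP binds AU-rich elements in 3′ untranslated regions (3′ UTRs), so the elements of the AP-1 mRNAs were read from the annotation first. The pentamer ATTTA was present in the longest annotated 3′ UTR of 8 of the 10 members and of 65.7% of 21062 genes. The heptamer TATTTAT was in 7 of 10 members and 27.4% of genes, and the nonamer TTATTTATT was in 2 of 10 members and 7.58% of genes. Batf and Jdp2 held none of the 3, and Junb held only pentamers. The 7 members with a heptamer are shown here by 1 element each, with the nonamer or heptamer in capitals, 5′ to 3′ on the mRNA strand of GRCm38:
Fos: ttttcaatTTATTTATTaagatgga
Fosl2: ttattttaTTATTTATTttaaatgt
Fosb: acccccagcTATTTATccctttcct
Fosl1: ggcagctgcTATTTATtttcctaaa
Jun: gcttgtgcaTATTTATaatagcgtt
Jund: attccgcccTATTTATgtttctact
Atf3: aatattactTATTTATcccagtatt

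The Fos site lay at chr12:85477105-85477129 and the Fosl2 site at chr5:32156873-32156897, both on the plus strand. The Fosl1 site was at chr19:5455869-5455893 on the plus strand and the Jun site at chr4:95049081-95049105 on the minus strand. The Fosb site was at chr7:19303328-19303352 and the Atf3 site at chr1:191170340-191170364, both on the minus strand, and the Jund site was at chr8:70700361-70700385 on the plus strand. All lie in 3′ UTR exons. The Fos 3′ UTR, at 815 bases, was the densest in pentamers with 4.91 per kb, followed by Junb with 4.12 and Jun with 3.24. The 4653 bases of Fosl2 held 8 pentamers, or 1.72 per kb. A match is a description of the sequence, and TTP binding was not measured in these libraries.

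The promoters were read from 250 bases before to 50 bases after the start of transcription in RefSeq (GRCm38.p6), where 9 of the 10 members had an entry. Fosl1 had no entry, so its promoter was not searched. The AP-1 consensus, searched on both strands as TGACTCA or TGAGTCA, was in the promoters of 5.95% of 27025 genes and in none of these 9 members. The related TGACGTCA, bound by CREB and ATF proteins, was in 2.03% of genes and in none of the 9. The variant TGACATCA was in 4.18% of genes and in 1 member, Jun, in which c-Jun is known to bind such an element of its own promoter. The Jun element is shown in capitals, from chr4:95052252-95052275 on the minus strand, starting 45 bases before the start of transcription:
Jun promoter: cctcggggTGACATCAtgggctat

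Fos, Jdp2 and Batf sit together on chromosome 12. Fos (ENSMUSG00000021250) spans chr12:85473890-85477273, Jdp2 (ENSMUSG00000034271) begins 121753 bases downstream of it, and Batf (ENSMUSG00000034266) begins 46790 bases after the end of Jdp2. Jun (ENSMUSG00000052684, chr4:95049034-95052222) has a single exon, and Fosl1 (ENSMUSG00000024912) spans chr19:5447547-5455946. Several members overlap a gene on the opposite strand, namely Fosl1 with Ccdc85b, Jun with Junos, Junb with Prdx2, Jund with Gm11175, Atf3 with Gm24748 and Jdp2 with AC115037.1. The use of strand in counting is not stated, so reads of such a pair cannot be told apart. Ccdc85b was at 5.54 to 12.6 CPM in skin and 10.03 to 27.8 CPM in tumors, and Junos at 83.6 to 199.9 CPM in skin and 50.2 to 80.0 CPM in tumors. Gm11175, at 82.5 to 154 CPM in skin and 84.3 to 132 CPM in tumors, had a range like that of Jund before correction for length, and Prdx2 was at 65.2 to 151 CPM in skin and 127 to 154 CPM in tumors. AC115037.1 was at most 1.10 CPM, and Gm24748 had 0 reads in every library.

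Fos, Jun and Atf3 were the most abundant AP-1 mRNAs in the skin libraries. The methods describe enzyme digestion and sorting before RNA was extracted, and the part of this handling in levels of AP-1 mRNAs was not tested. Because longer mRNAs give more reads, levels of different genes were compared as CPM per kb of annotated exon. In the 11 skin libraries the median was 487 CPM per kb for Fos, 391 for Jun, 270 for Atf3 and 185 for Junb. Fosb followed with 94.6, Jund with 85.9, Fosl1 with 41.4 and Fosl2 with 38.7 CPM per kb. The ranges of neighbors in this order overlapped, with Fos at 362 to 1002 and Jun at 262 to 626 CPM per kb. Jdp2, a repressor of AP-1 activity, was far below the others with a median of 1.495 CPM per kb. Batf, best known from lymphocytes, had 16 reads over all 17 libraries and 0 in 10 of them, failed the filter on low counts and was not tested by edgeR. A count of 0 allows up to 3 reads. The other 9 members were tested in every comparison.

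**Figure D1:**
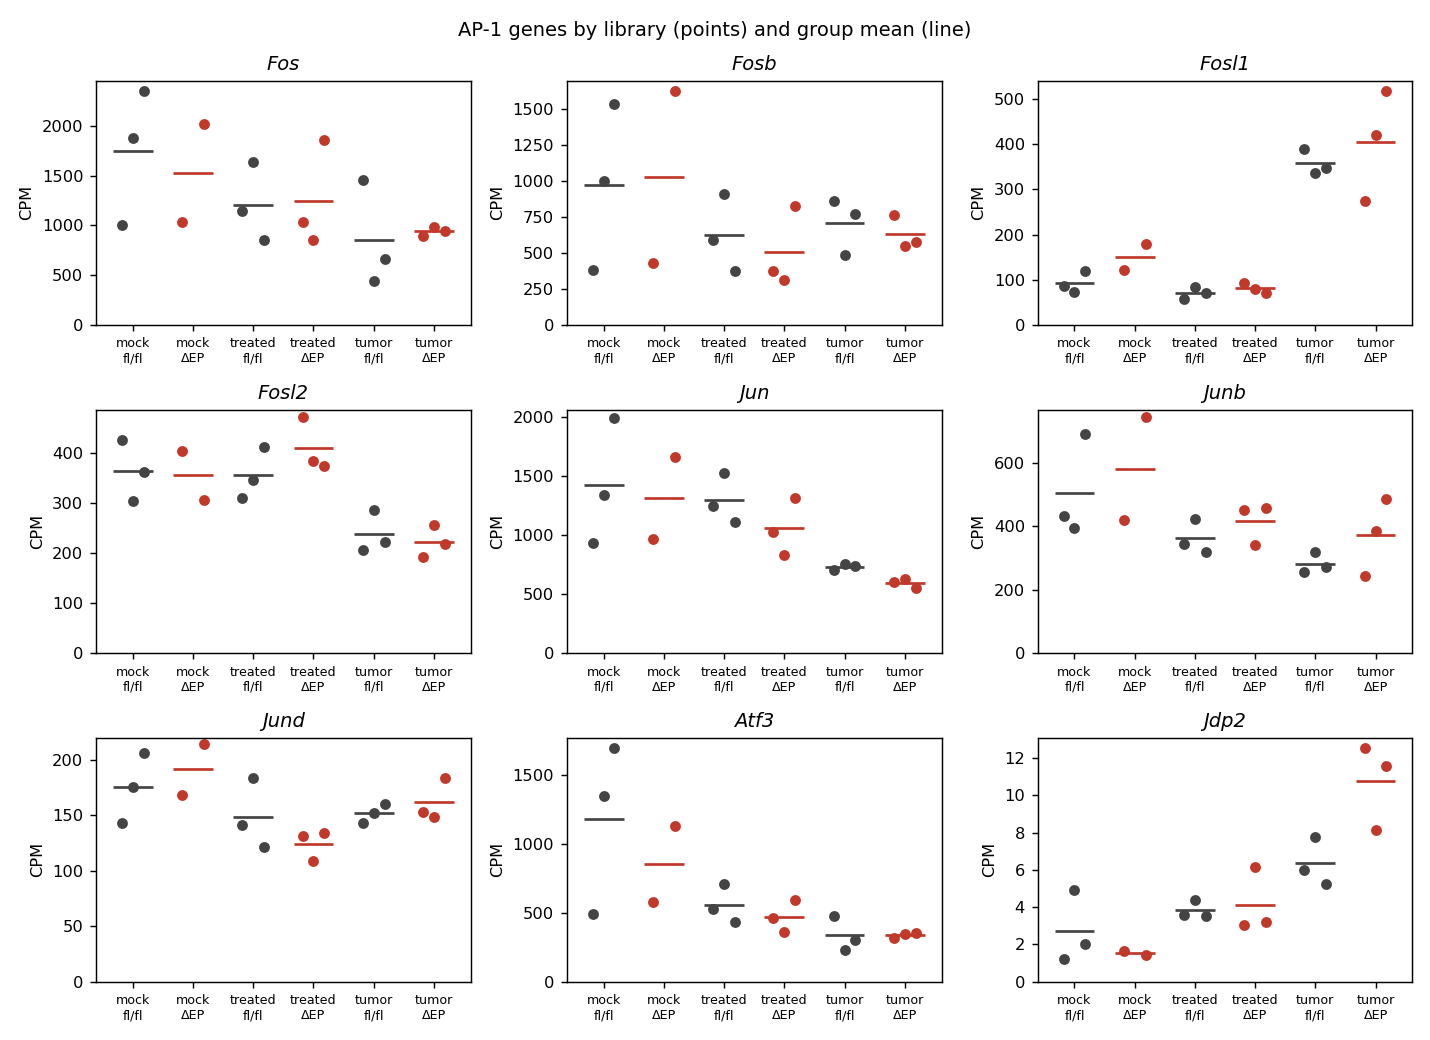
CPM of the 9 tested AP-1 genes in each of the 17 libraries (points) with the mean of each group (line), in mock skin, treated skin and tumors of fl/fl (dark gray) and ΔEP (red) mice. Fosl1 sits at 275 to 517 CPM in the 6 tumors and at 56.4 to 179.5 CPM in the 11 skin libraries, while Jun and Fosl2 lie lower in every tumor than in any skin library. Of 18252 genes, 12.4% are separated between tumors and skin in this way.

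Tumors were compared with skin to ask how the AP-1 set changes with tumor formation. Fosl1, which encodes Fra-1, a Fos protein without the transactivation domain of c-Fos that is known from invasive carcinoma cells, was the member that separated most clearly. In fl/fl mice it was at 85.8, 72.5 and 118 CPM in mock skin, 56.4, 84.2 and 70.1 CPM in treated skin, and 389, 337 and 347 CPM in tumors. In ΔEP mice it was at 121 and 179.5 CPM in mock skin, 92.9, 80.0 and 70.3 CPM in treated skin, and 275, 420 and 517 CPM in tumors. Each tumor library was above each skin library, in both genotypes.

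Fosl1 rose in fl/fl tumors against treated skin by a log2 fold change of 2.33 ± 0.20 (SE, n = 3 against 3), or 5.01-fold, with an adjusted p of 0.00116 in edgeR. It was the only one of 9 members called in that comparison, in which 18% of 15362 genes were called. In ΔEP mice Fosl1 rose by 2.21 ± 0.25 (SE, n = 3 against 3), or 4.64-fold, with an edgeR adjusted p of 0.000687. Here 2 of 9 members were called, Fosl1 and Jdp2, among 26% of 15289 genes. Both calls of Fosl1 against treated skin held in every alternative fit and with each library left out, with log2 fold changes from 2.03 to 2.46.

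Against mock skin, Fosl1 rose in fl/fl tumors by 1.92 ± 0.28 (SE, n = 3 against 3) on the log2 scale, or 3.78-fold, with an edgeR adjusted p of 0.0184. It was again the only one of 9 members called, where 4.11% of 15394 genes were called. This call was lost without mock fl/fl replicate 2 or 3 or without fl/fl tumor replicate 2 or 3, with edgeR adjusted p up to 0.108 and a log2 fold change of at least 1.75, and was kept without mock replicate 1 with an adjusted p of 0.00696, where 3 of 9 members and 21% of all genes were called. In ΔEP mice the log2 fold change of Fosl1 was 1.33 ± 0.36 (SE, n = 3 against 2) with an edgeR adjusted p of 0.0516. Without mock ΔEP replicate 1 it was 1.13 with an adjusted p of 0.0399.

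Jun and Fosl2 moved the other way. Jun encodes c-Jun, the main partner of Fos proteins. In fl/fl mice it was at 933, 1342 and 1995 CPM in mock skin, 1248, 1533 and 1112 CPM in treated skin, and 702, 757 and 740 CPM in tumors. In ΔEP mice it was at 971 and 1665 CPM in mock skin, 1030, 837 and 1317 CPM in treated skin, and 600.5, 632 and 551 CPM in tumors. All 6 tumor libraries were below all 11 skin libraries, and they were close to each other while mock libraries were spread over more than 1000 CPM.

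Jun fell in ΔEP tumors against mock skin by 1.24 ± 0.30 (SE, n = 3 against 2) on the log2 scale with an edgeR adjusted p of 0.0409. It was 1 of 3 members called of 9 there, beside Atf3 and Jdp2, where 14.3% of 15027 genes were called. Each of these calls was lost without any single tumor library, and those of Jun and Atf3 fell under 2-fold without mock ΔEP replicate 2, at -0.71 and -0.79. Without mock ΔEP replicate 1, which leaves 1 mock library, 7 of 9 members and 28.1% of all genes were called, with Jun at a log2 fold change of -1.52 and an adjusted p of 0.00127. Against treated skin the log2 fold change of Jun was -0.85 ± 0.19 (SE, n = 3 against 3) in fl/fl with an edgeR adjusted p of 0.0186. It was -0.92 ± 0.20 (SE, n = 3 against 3) in ΔEP with an adjusted p of 0.00875, and both passed on p but stayed under 2-fold. Against fl/fl mock skin it was -0.99 ± 0.33 (SE, n = 3 against 3) with an adjusted p of 0.112. Without mock fl/fl replicate 1 Jun was called, at -1.20 with an adjusted p of 0.0201. Junos, on the other strand of the Jun locus, moved alongside it, with a called log2 fold change of -1.31 against mock and -1.07 against treated skin in ΔEP tumors.

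Fosl2, which encodes Fra-2 and is expressed in differentiating keratinocytes, was at 426, 304 and 363 CPM in mock fl/fl skin and 207, 286 and 223 CPM in fl/fl tumors. In ΔEP mice it was at 404 and 307 CPM in mock skin and 193, 256 and 218 CPM in tumors. Treated skin was between 310.1 and 473 CPM in both genotypes, so that the 6 tumors again lay below the 11 skin libraries. The log2 fold change against treated skin was -0.98 ± 0.19 (SE, n = 3 against 3) in ΔEP with an edgeR adjusted p of 0.00500, just under 2-fold. In fl/fl it was -0.61 ± 0.20 (SE, n = 3 against 3) with an adjusted p of 0.0629. Against mock skin it was -0.65 ± 0.26 (SE, n = 3 against 3) in fl/fl and -0.77 ± 0.26 (SE, n = 3 against 2) in ΔEP, with edgeR adjusted p of 0.170 and 0.0898. Fosl1, Jun and Fosl2 were thus the 3 of 9 members whose tumor and skin libraries did not overlap over both genotypes, and 12.4% of 18252 genes were separated in the same way.

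Atf3, a stress-induced member that can repress transcription, was highest in mock skin. It was at 492, 1346 and 1694 CPM in mock fl/fl skin, 524, 705 and 432 CPM in treated fl/fl skin, and 480.1, 227 and 303 CPM in fl/fl tumors. In ΔEP mice it was at 581 and 1133 CPM in mock skin, 461.5, 360 and 594 CPM in treated skin, and 314, 343 and 354 CPM in tumors. Tumors did not overlap with mock skin in either genotype, although the lowest mock fl/fl library, replicate 1, was only just above the highest tumor.

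Atf3 fell in ΔEP tumors against mock skin by 1.44 ± 0.33 (SE, n = 3 against 2) on the log2 scale with an edgeR adjusted p of 0.0350, and its log2 fold change was -1.78 with an adjusted p of 0.000567 without mock replicate 1. In fl/fl its log2 fold change was -1.84 ± 0.50 (SE, n = 3 against 3) with an adjusted p of 0.0746, and without mock replicate 1 it was called at -2.19 with an adjusted p of 0.00718. Against treated skin it was -0.74 ± 0.30 (SE, n = 3 against 3) in fl/fl and -0.57 ± 0.20 (SE, n = 3 against 3) in ΔEP, with edgeR adjusted p of 0.108 and 0.0503. Without fl/fl tumor replicate 1 the first of these was called, at -1.08 with an adjusted p of 0.00909. That library had the lowest total count of all, the fewest genes with a count (19219) and the largest mitochondrial share (11.6% of counts).

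Fos and Fosb, the classical immediate early members, were not called in tumors. Fos was at 1004, 1879 and 2356 CPM in mock fl/fl skin, 1146, 1632 and 850.3 CPM in treated fl/fl skin, and 1454, 443 and 659 CPM in fl/fl tumors. In ΔEP mice it was at 1032 and 2020 CPM in mock skin, 1029, 854 and 1860 CPM in treated skin, and 893, 986 and 948 CPM in tumors. The ΔEP tumors were within 100 CPM of each other, whereas fl/fl tumors differed by more than 3-fold, with replicate 1 the highest.

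The 4 log2 fold changes of Fos in tumors against skin ran from -1.07 ± 0.50 (SE, n = 3 against 3) to -0.49 ± 0.27 (SE, n = 3 against 3), with edgeR adjusted p from 0.144 to 0.399, and only against ΔEP mock skin were all tumors below all skin libraries. Without fl/fl tumor replicate 1, Fos was called against fl/fl treated skin at -1.15 with an adjusted p of 0.0173, and without mock ΔEP replicate 1 it was called against ΔEP mock skin at -1.13 with an adjusted p of 0.00407, as was Fosb with an adjusted p of 0.00391. Fosb was at 384 to 1630 CPM in mock skin, 311 to 913 CPM in treated skin and 488 to 864 CPM in tumors, and its groups overlapped in all 4 comparisons. Its log2 fold changes in tumors ran from -0.80 to 0.24, and in ΔEP tumors against mock skin its sign depended on which mock library was kept, with -1.41 without replicate 1 and 0.54 without replicate 2.

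Junb, which restrains c-Jun and keratinocyte growth, and Jund, the most evenly expressed Jun gene, did not pass the test in tumors. Junb was at 395 to 744 CPM in mock skin, 319 to 459 CPM in treated skin and 243 to 486 CPM in tumors. Its log2 fold changes were -0.88 ± 0.30 (SE, n = 3 against 3) against mock and -0.39 ± 0.18 (SE, n = 3 against 3) against treated skin in fl/fl, with edgeR adjusted p of 0.118 and 0.1498. In ΔEP they were -0.74 ± 0.38 (SE, n = 3 against 2) and -0.27 ± 0.25 (SE, n = 3 against 3), with edgeR adjusted p of 0.214 and 0.433, and without mock replicate 1 Junb was called against mock skin, at -1.04 with an adjusted p of 0.0402. Jund stayed between 108 and 214.5 CPM in all 17 libraries, and its log2 fold changes in tumors ran from -0.34 to 0.28.

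Jdp2 was scarce but highest in tumors. It was at 1.22, 4.91 and 2.03 CPM in mock fl/fl skin, 3.58, 4.39 and 3.53 CPM in treated fl/fl skin, and 6.02, 7.79 and 5.24 CPM in fl/fl tumors. In ΔEP mice it was at 1.62 and 1.44 CPM in mock skin, 3.05, 6.14 and 3.21 CPM in treated skin, and 12.5, 8.17 and 11.6 CPM in tumors. No library held more than 61 reads of Jdp2, so counting error weighs more here than in the other members.

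Jdp2 rose in ΔEP tumors by 2.69 ± 0.45 (SE, n = 3 against 2) on the log2 scale against mock skin with an edgeR adjusted p of 0.0176, and by 2.84 with an adjusted p of 0.00894 without mock replicate 1. Against treated skin it rose by 1.25 ± 0.37 (SE, n = 3 against 3) with an adjusted p of 0.0286, a call lost without ΔEP treated replicate 1 or 3 or without ΔEP tumor replicate 1 or 3, with adjusted p up to 0.0850. In fl/fl the log2 fold changes were 1.25 ± 0.57 (SE, n = 3 against 3) and 0.73 ± 0.32 (SE, n = 3 against 3), with edgeR adjusted p of 0.211 and 0.129, and the first was 0.92 without mock replicate 1.

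**Figure D2:**
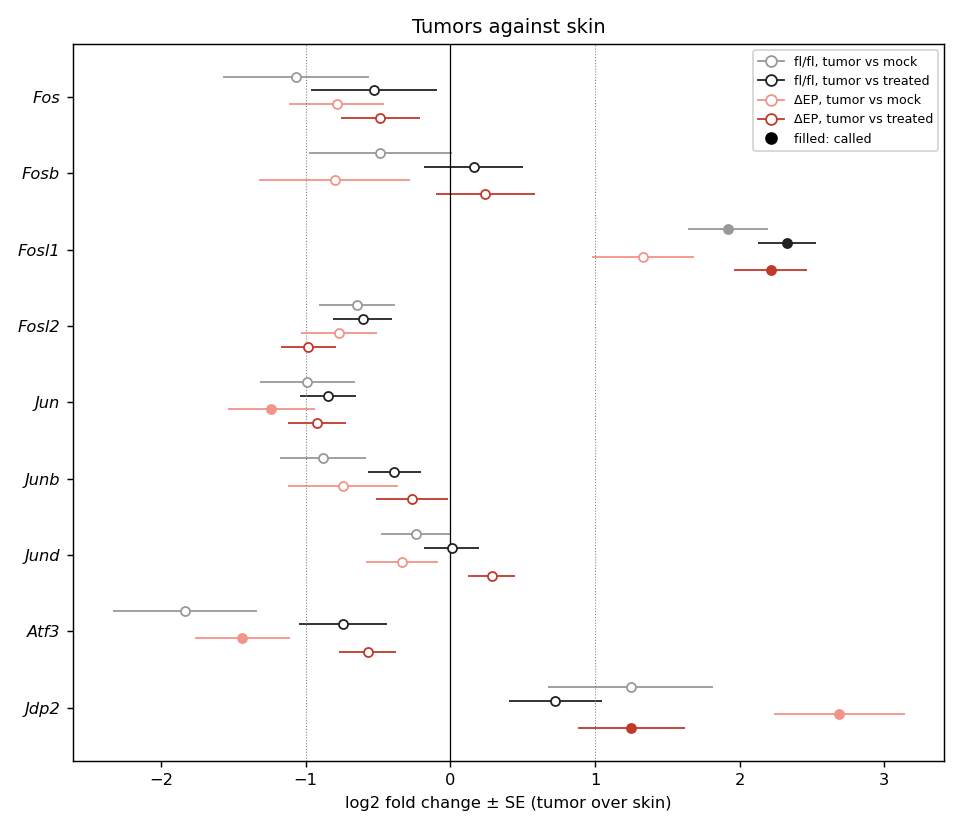
Log2 fold changes (points) with their standard errors (bars) of the 9 tested AP-1 genes in tumors over skin, from edgeR, for both genotypes and both kinds of skin. Filled points are called, dotted lines mark a 2-fold change, and Fosl1 lies between 1.33 and 2.33 in all 4 comparisons while Jun lies between -1.24 and -0.85.

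Counted over the set, 6 of 9 members did not overlap between tumors and mock skin in fl/fl, against 31.1% of 18252 genes, and 6 of 9 in ΔEP, against 50.3%. Against treated skin it was 5 of 9 in fl/fl, where 43.7% of genes did not overlap, and 6 of 9 in ΔEP, where it was 49.7%. Tumor libraries differed from skin in other measures too. The summed level of 5 fibroblast markers was 335 to 1219 CPM in skin and 24.9 to 299.5 CPM in tumors, and that of 5 keratinocyte markers was 2985 to 13944 CPM in skin and 8451 to 29207 CPM in tumors. Of the fibroblast markers only Dcn did not overlap, at 47.1 to 976 CPM in skin and 0.190 to 10.1 CPM in tumors. Col1a1, Col3a1, Pdgfra and Lum overlapped between skin and tumors. The sum of 12 heat shock genes was 3647 to 5701 CPM in skin and 7724 to 11699 CPM in tumors. The sum of 7 leukocyte markers was 10.2 to 177 CPM in skin, 17.0 to 34.1 CPM in fl/fl tumors and 61.2 to 91.0 CPM in ΔEP tumors. That of 4 melanocyte markers was 35.0 to 247 and 8.85 to 28.8 CPM, that of 4 endothelial markers was 8.62 to 36.0 and 15.7 to 39.7 CPM, and that of 4 skeletal muscle markers stayed at or under 4.84 CPM. Their part in the AP-1 differences was not tested, and in bulk libraries fewer cells of a type and less RNA per cell cannot be told apart.

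The make-up of the AP-1 transcripts differed accordingly between tumors and skin. As a share of the summed per-kb counts of the 10 members, Fosl1 made up 1.52% to 4.05% in the 11 skin libraries and 11.3% to 17.7% in the 6 tumors. The share of Fos was 28.7% to 40.2% in skin and 18.2% to 38.3% in tumors, so it overlapped. Atf3 made up 14.0% to 26.6% in skin and 10.2% to 13.8% in tumors. The ratio of Fosl1 to Fos counts ran from 0.0378 to 0.117 in skin, with a median of 0.0824, and from 0.268 to 0.759 in tumors, with a median of 0.477. In the order of median levels per kb, Fosl1 with 181 CPM per kb came next after Fos with 391 and Jun with 209 in tumors, and its range there overlapped with those of Fos, Jun, Atf3, Junb and Fosb. This order and the shares depend on the length used, all annotated exons of a gene, which was 6243 bases for Fosb and 9680 for Fosl2. Before correction for length the tumor median was 669 CPM for Fosb, 667 for Jun and 368 for Fosl1. All 10 members together took 0.392% to 0.964% of counts in skin and 0.285% to 0.319% in tumors. These are shares of raw totals without TMM scaling. On the TMM scale the summed level of the set overlapped between skin and tumors. Fl/fl tumor replicate 1 had 2914, 1101 and 486 CPM of Fos genes, Jun genes and the other 3 members. Treated ΔEP replicate 2 had 1629, 1287 and 367 CPM of them. The summed CPM of the 4 Fos genes overlapped between skin and tumors, at 1629 to 4373 and 1553 to 2914 CPM, whereas that of the 3 Jun genes did not, at 1287 to 2894 and 997 to 1227 CPM.

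**Figure D3:**
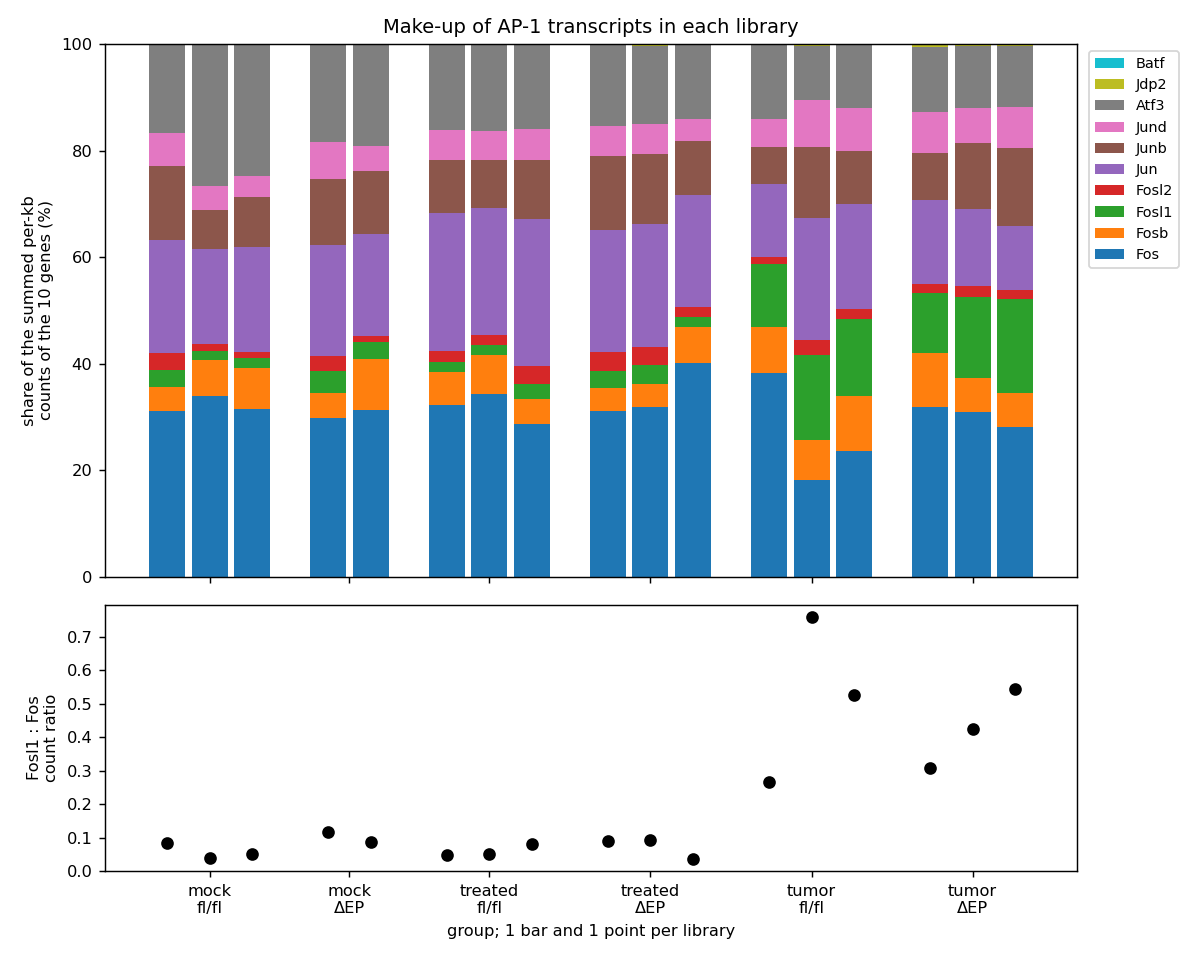
Share of each AP-1 gene in the summed per-kb counts of the 10 genes (bars, in percent, 1 per library) and the ratio of Fosl1 to Fos counts (points, 1 per library) in the 6 groups. The green Fosl1 band is at most 4.05% in skin and at least 11.3% in tumors, and the ratio is at most 0.117 in skin and at least 0.268 in tumors.

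Treated skin was compared with mock skin to ask what long exposure to DMBA and TPA leaves in skin without a tumor. No member was called in either genotype by edgeR, and 0% of 16601 genes in fl/fl and 0% of 15891 in ΔEP were called. At an unadjusted p under 0.05 there were 0 members in fl/fl and 2 in ΔEP, Fosl1 with a log2 fold change of -0.90 ± 0.29 (SE, n = 3 against 2) and Jdp2 with 1.42 ± 0.58 (SE, n = 3 against 2), both with edgeR adjusted p above 0.8. Over the 9 members the log2 fold changes ran from -1.07 to 0.55 in fl/fl and from -1.04 to 1.42 in ΔEP. DESeq2 and the edgeR exact test called none either, beside 0.359% and 0.626% of all genes in fl/fl and 0.207% and 0.422% in ΔEP, with 1 member each at an unadjusted p under 0.05 in each genotype. In ΔEP mice 3 of 9 members did not overlap, Fosl1 and Jund lower and Jdp2 higher, against 16.8% of all genes, and in fl/fl it was 0 of 9 against 10.3%. Atf3 had the largest negative value in fl/fl, -1.07 ± 0.45 (SE, n = 3 against 3) with an edgeR adjusted p of 0.888, and was called only without mock replicate 1, at -1.43 with an adjusted p of 0.00662. In that fit 1 of 9 members was called beside 15.1% of 17103 genes, and without mock ΔEP replicate 1 edgeR called no member and 0% of 17359 genes in ΔEP, of which 3065 had an unadjusted p under 0.05.

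The genotypes were compared at each stage to ask how the loss of TTP bears on AP-1 mRNAs. No member was called by edgeR in mock skin, treated skin or tumors. Among all genes 0% of 15920, 0.00616% of 16232 and 0.0284% of 14067 were called at these stages, in tumors 0.0213% higher and 0.00711% lower. Zfp36 was called in treated skin and in tumors, but not in mock skin, where its log2 fold change was -4.13. A lack of calls therefore does not show a lack of change. Unadjusted p under 0.05 was reached by 0, 0 and 1 member with edgeR, by 0, 0 and 1 with DESeq2, and by none with the exact test, and neither of these tools called a member. In tumors DESeq2 called 1.38% and the exact test 2.62% of all genes, and without fl/fl tumor replicate 1, the library of lowest depth, edgeR called 16.9% of 15463 genes and again 0 of 9 members. The summed level of the leukocyte markers, most of it Cd74, was higher in each ΔEP tumor than in each fl/fl tumor, and its part in differences between these groups was not tested.

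Jun was the 1 member of this kind, in tumors. Its fl/fl tumors were at 702, 757 and 740 CPM and its ΔEP tumors at 600.5, 632 and 551 CPM, so the groups did not overlap. The log2 fold change was -0.44 ± 0.18 (SE, n = 3 against 3) with an unadjusted p of 0.0368 and an edgeR adjusted p of 0.328. Jdp2 did not overlap in tumors either, with ΔEP above fl/fl and a log2 fold change of 0.60 ± 0.32 (SE, n = 3 against 3) and an edgeR adjusted p of 0.432. These were 2 of 9 members, where 16.5% of genes did not overlap in that comparison.

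Fosl1 in mock skin was the other case, with 121 and 179.5 CPM in ΔEP against at most 118 CPM in fl/fl and a log2 fold change of 0.71 ± 0.34 (SE, n = 2 against 3) with an edgeR adjusted p of 0.99998. With a term for replicate 1 it was 0.73 ± 0.24 (SE, n = 2 against 3) with an edgeR adjusted p of 0.621. It was 1 of 9 members there, against 13.2% of genes, and in treated skin 0 of 9 members were apart, against 11.7%. In tumors the log2 fold change of Fosl1 was 0.04 ± 0.24 (SE, n = 3 against 3), and its groups overlapped. Fos, with a nonamer and the densest AU-rich 3′ UTR of the set, had log2 fold changes of -0.18 ± 0.49 (SE, n = 2 against 3) in mock skin, 0.02 ± 0.35 (SE, n = 3 against 3) in treated skin and 0.02 ± 0.39 (SE, n = 3 against 3) in tumors. Without fl/fl tumor replicate 1 the value in tumors was 0.67 ± 0.20 (SE, n = 3 against 2) with an edgeR adjusted p of 0.0387, under 2-fold, and without either mock replicate 1 the value in mock skin was -0.44 or 0.23. Fosl2, the other member with a nonamer, had -0.04, 0.18 and -0.24, with standard errors from 0.19 to 0.31.

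**Figure D4:**
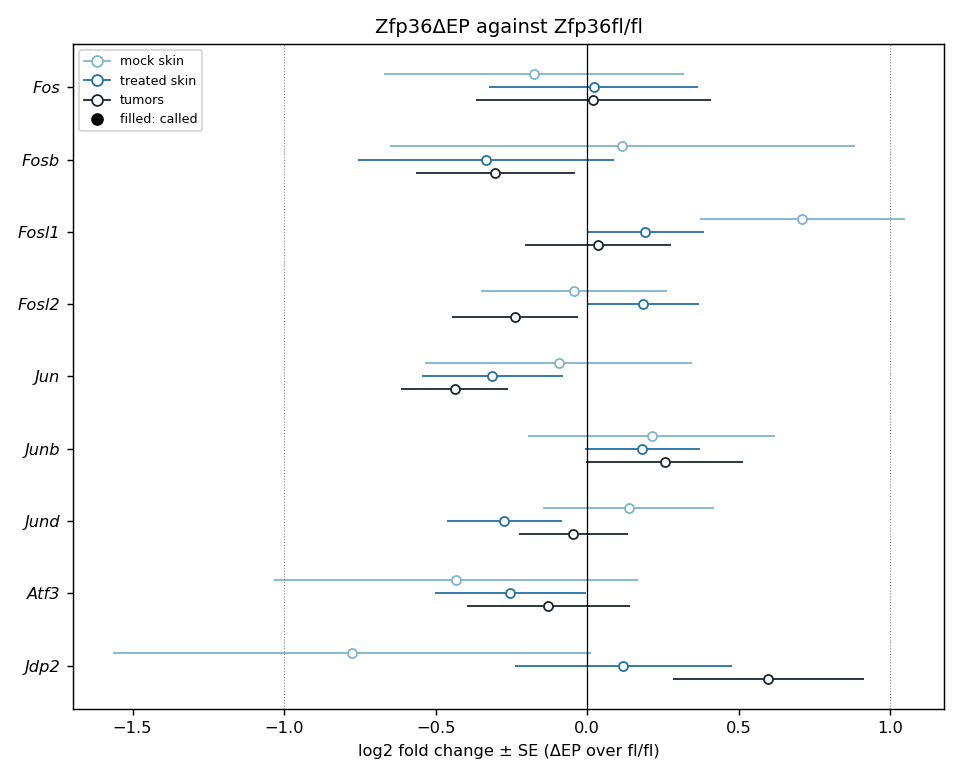
Log2 fold changes (points) with their standard errors (bars) of the 9 tested AP-1 genes in ΔEP over fl/fl, from edgeR, in mock skin, treated skin and tumors. No point is filled because none was called, and all lie between -0.78 and 0.71.

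Whether a change between stages differed between genotypes was tested as an interaction. No member passed at an adjusted p under 0.05 in edgeR or DESeq2, and with all libraries none reached an unadjusted p under 0.05 with either tool. Among all genes, 0% of 17694 passed for treated against mock skin, 0% of 17388 for tumors against mock skin and 0.0118% of 17017 for tumors against treated skin. The largest difference was that of Jdp2 in tumors against mock skin, at 1.44 ± 0.76 (SE, n = 11 libraries) on the log2 scale with an edgeR adjusted p of 0.678, and without mock fl/fl replicate 1 it was 1.77 ± 0.69 (SE, n = 10 libraries) with an unadjusted p of 0.0274 and an adjusted p of 0.326. The values of the 9 members ran from -0.51 to 0.87 for treated against mock skin, from -0.58 to 1.44 for tumors against mock skin and from -0.36 to 0.54 for tumors against treated skin. For Fosl1 in tumors against treated skin it was -0.09 ± 0.32 (SE, n = 12 libraries), with increases of 2.33 in fl/fl and 2.21 in ΔEP. Calls of Jdp2, Atf3 and Jun in one genotype and not in the other are therefore not shown to differ between genotypes.

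Genes linked to AP-1 were counted in lists, which were chosen with results of these data known and hold genes that the study discusses, so their counts are descriptions. Of 34 genes known as AP-1 targets, such as matrix metalloproteases, cornified envelope genes and growth factors, 16 of 32 tested rose in fl/fl tumors against mock skin and none fell, where 2.22% of all genes rose and 1.88% fell. Against treated skin 22 of 31 rose in fl/fl, beside 7.5% of all genes, and none fell, beside 10.5%. In ΔEP mice 23 of 31 rose and none fell against mock skin, beside 7.05% and 7.22% of genes, and 24 of 31 rose and 1 fell against treated skin, beside 10.5% and 15.5% of genes. Without mock replicate 1, 24 of 32 rose and 1 fell in fl/fl, beside 9.45% and 11.5% of genes, and 27 of 34 rose and 1 fell in ΔEP, beside 14.7% and 13.4%. The median log2 fold changes of the list ran from 2.51 to 4.51 in the 4 comparisons, where medians over all genes lay within -0.06 and -0.02. Mmp13, an interstitial collagenase, was at 0.131 to 1.18 CPM in fl/fl skin and 46.5 to 161.6 CPM in fl/fl tumors, and at 316 to 1153 CPM in ΔEP tumors. Fst, which encodes the activin antagonist follistatin, rose by 3.22 ± 0.33 (SE, n = 3 against 3) against mock skin in fl/fl and by 3.96 ± 0.25 (SE, n = 3 against 3) against treated skin in ΔEP, with edgeR adjusted p of 0.00671 and 0.000165.

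Between genotypes in tumors none of the 31 tested targets was called by edgeR, 15 had an unadjusted p under 0.05, and the median log2 fold change was 0.90 where that of all genes was -0.02. The 9 AP-1 members in the same comparison had values from -0.44 to 0.60. Without fl/fl tumor replicate 1, 18 of 32 targets were called higher in ΔEP and none lower, beside 7.32% and 9.58% of all genes, with a median of 1.37. In treated skin all 25 tested targets had a positive log2 fold change in ΔEP over fl/fl, with a median of 0.52, 7 at an unadjusted p under 0.05 and none called. The target list holds Areg, whose mRNA the study found to be destabilized by TTP. It also holds Vegfa, for which the study cites control by TTP elsewhere, and S100a8, which it reports among genes differing by genotype in treated skin. Whether shifts of this list between genotypes reflect AP-1 activity or mRNA decay through TTP was not tested. In treated against mock skin no gene of any list was called, but without mock fl/fl replicate 1 the fl/fl counts were 5 higher and 2 lower of 22 targets and 1 higher and 6 lower of 20 immediate early genes, beside 7.97% and 7.16% of all genes. Between genotypes in mock skin the median of 22 tested targets was 0.12, with 1 at an unadjusted p under 0.05.

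Of 28 genes of the pathways that induce AP-1 (MAP kinases, their activators and phosphatases, and serum response factors), 4 rose and 1 fell of 28 tested in fl/fl tumors against mock skin, beside 2.22% and 1.88% of all genes. Against treated skin 5 of 29 tested IDs rose and 1 fell, beside 7.5% and 10.5%. In ΔEP 6 of 28 rose and 1 fell against mock skin, beside 7.05% and 7.22% of all genes. Against treated skin 7 of 28 rose and 1 fell in ΔEP, beside 10.5% and 15.5%. Without mock replicate 1 the counts against mock skin were 7 and 1 in fl/fl and 10 and 2 in ΔEP. Dusp4, a phosphatase of nuclear MAP kinases that is itself induced by ERK signaling, rose against mock skin by 3.98 ± 0.67 (SE, n = 3 against 3) in fl/fl and 3.61 ± 0.40 (SE, n = 3 against 2) in ΔEP. Map2k1, which encodes the ERK kinase MEK1, rose in all 4 comparisons by 1.53 to 2.14. Map3k1, an activator of the JNK pathway, fell in fl/fl tumors by 2.01 ± 0.36 (SE, n = 3 against 3) against mock skin. These calls had edgeR adjusted p from 0.00108 to 0.0387. Elk3, a ternary complex factor of serum response elements, rose in ΔEP tumors by 4.50 ± 0.32 (SE, n = 3 against 2) against mock skin and 3.27 ± 0.23 (SE, n = 3 against 3) against treated skin, with edgeR adjusted p of 0.00461 and 0.000173.

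Other immediate early genes moved in both directions. Of 20 tested, 0 rose and 1 fell in fl/fl tumors against mock skin, beside 2.22% and 1.88% of all genes. Against treated skin 4 rose and 3 fell, beside 7.5% and 10.5%. In ΔEP the counts were 1 and 4 against mock skin, beside 7.05% and 7.22%, and 5 and 5 against treated skin, beside 10.5% and 15.5%. Without mock replicate 1 they were 3 and 8 in fl/fl and 3 and 10 in ΔEP against mock skin. Egr2 and Egr1, growth-signal zinc finger factors, fell in ΔEP tumors against mock skin by 3.72 ± 0.27 and 1.98 ± 0.28 (SE, n = 3 against 2), with edgeR adjusted p of 0.00461 and 0.0122. Ier2 fell against mock skin by 1.45 ± 0.25 (SE, n = 3 against 3) in fl/fl and fell by 1.63 ± 0.28 (SE, n = 3 against 2) in ΔEP, with adjusted p of 0.0275 and 0.0182. Ier5 and Klf6 rose in fl/fl tumors against treated skin by 1.39 and 1.20, and Btg2, an antiproliferative gene, fell by 2.06, with edgeR adjusted p of 0.00255, 0.00606 and 0.00240. Cyr61, a secreted matricellular protein gene, rose in ΔEP tumors against treated skin by 2.03 with an adjusted p of 0.000437.

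Of 23 other bZIP genes, which can share partners with AP-1 proteins, 1 rose and 0 fell of 21 tested in fl/fl tumors against mock skin, beside 2.22% and 1.88% of all genes. Against treated skin 4 rose and 1 fell of 20, beside 7.5% and 10.5%. In ΔEP it was 1 and 2 of 21 against mock skin, beside 7.05% and 7.22%, and 5 and 2 of 21 against treated skin, beside 10.5% and 15.5%. Without mock replicate 1 the counts against mock skin were 2 and 0 in fl/fl and 4 and 4 in ΔEP. Atf4, the effector of the integrated stress response, rose in fl/fl tumors by 1.43 ± 0.29 and 1.61 ± 0.19 (SE, n = 3 against 3) against mock and treated skin, with edgeR adjusted p of 0.0405 and 0.00235. Nfe2l2, which encodes NRF2, rose in ΔEP tumors by 1.18 ± 0.28 (SE, n = 3 against 2) and 1.56 ± 0.17 (SE, n = 3 against 3), and Creb5 fell by 3.39 ± 0.64 (SE, n = 3 against 2) and fell by 3.86 ± 0.33 (SE, n = 3 against 3). The adjusted p of these 4 values ran from 0.000239 to 0.0382, and without mock replicate 1 Creb5 against mock skin was at -1.67. Nfe2l2 was also called higher in fl/fl tumors against treated skin, at 206 to 282 against 96.7 to 113 CPM. In ΔEP mice Atf4 was at 271 to 452 CPM in tumors, 179.5 to 212 CPM in mock skin and 136 to 162 CPM in treated skin. Of 12 heat shock genes, which encode chaperones and their partners, 1 and 6 rose in fl/fl tumors and 2 and 9 in ΔEP tumors, against mock and treated skin in that order, and none fell. Of all genes 2.22% and 7.5% rose in fl/fl and 7.05% and 10.5% in ΔEP, in the same order. Without mock replicate 1, 5 rose in fl/fl and 9 in ΔEP against mock skin. Bag3, the chaperone regulator on the heat shock list, rose in all 4 comparisons by 1.79 to 2.03.

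**Figure D5:**
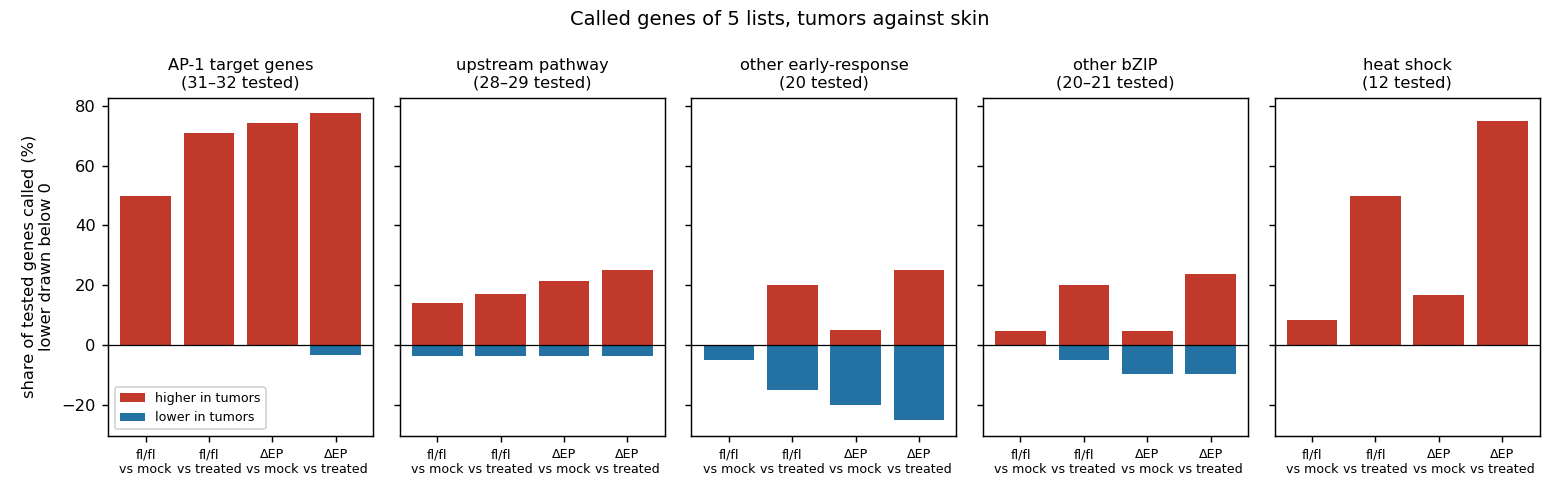
Share of tested genes in 5 lists that were called higher (red, above 0) or lower (blue, below 0) in tumors over skin, in percent, for both genotypes and both kinds of skin. Targets reach 16 of 32 to 24 of 31 genes higher, while immediate early genes are called in both directions, with up to 5 of 20 each way. Over all genes 2.22% to 10.5% are called higher and 1.88% to 15.5% lower in these comparisons.

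The genes most like Fosl1, Fos and Jun over the 17 libraries were sought among 9057 genes with a mean of at least 10 CPM, by Pearson's r of log2 CPM. Tumor and skin libraries form separate sets and share depth and normalization, so r is given as a measure of likeness without a test. For Fosl1 they were Pim1, a kinase gene (r = 0.967), Eif1, a translation initiation factor gene (r = 0.959), and Spry2, an inhibitor of receptor tyrosine kinase signaling (r = 0.959). Pim1 ran from 57.9 to 119 CPM in skin and from 202 to 522 CPM in tumors. For Fos they were the retinoid receptor genes Rarg (r = 0.967) and Rxra (r = 0.919) and the POU factor gene Pou3f1 (r = 0.939). Rarg was at 85.8 to 86.9 CPM in both mock replicate 1 libraries and at 190.3 to 214.9 CPM in the other mock libraries. For Jun they were Txnip (r = 0.971), a regulator of glucose uptake, the histone methyltransferase gene Ezh1 (r = 0.953) and the phosphatase gene Acpp (r = 0.952). Txnip ran from 78.1 to 975 CPM in skin and from 9.50 to 22.0 CPM in tumors.

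Within 200 kb of a member lay 191 genes, of which 101 to 124 were tested. None was called between genotypes or between treated and mock skin with all libraries. In fl/fl tumors 0 rose and 1 fell of 110 against mock skin, where 4.11% of all genes were called. Against treated skin 2 rose and 7 fell of 107, where 18% were called. In ΔEP tumors 5 rose and 8 fell of 113 against mock skin, where 14.3% of all genes were called. Against treated skin 11 rose and 13 fell of 107 in ΔEP tumors, where 26% of all genes were called. Without mock replicate 1 the counts against mock skin were 8 and 8 of 109 in fl/fl and 14 and 19 of 116 in ΔEP. Around Fosl1, Ccdc85b, which overlaps it, rose by 1.46 in ΔEP tumors against treated skin with an edgeR adjusted p of 0.00993, and Rela, the p65 subunit of NF-κB, rose by 1.04 with an adjusted p of 0.0101. Cst6, a cystatin gene near Fosl1, fell by 5.26 ± 0.35 (SE, n = 3 against 3) with an edgeR adjusted p of 0.000165.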

How the data were processed

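RNA was measured in 18 samples of mouse keratinocytes. The deposited values are raw counts per gene, made by the authors from Ovation SoLo libraries sequenced on an Illumina HiSeq. The submitters' processing notes name mm10, Trimmomatic 0.36, STAR 2.5.3, HTSeq 0.9.1 and DESeq2, without saying for which step, and the use of strand and the removal of duplicate reads are not given in the sources used here. Tables of the authors' own fold changes and p-values were not used. Of 52636 gene IDs, 52403 matched GENCODE on GRCm38, from which positions, exon lengths and 3′ UTRs were taken.

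The test was that of edgeR 4.0.16 under R 4.3.3 (filterByExpr, TMM, quasi-likelihood F test, two-sided) on the libraries of the groups compared, with Benjamini-Hochberg adjustment over all genes tested. DESeq2 1.42.0, edgeR's exact test, RLE scaling, one model of the 17 libraries, no filter, the replicate number as a block, a term for mock replicate 1, the identical columns counted as 2 libraries, and each library left out were alternatives. The procedures were also run on simulated counts with the same dispersion for all genes and no library that stands apart. That setting differs from these data, so the run does not show how the tests behave here. The mean log2 CPM used a prior count of 2. The rule was to name all 10 members, but Batf is given by its counts, and for treated against mock skin and the interactions most members are given by their range. From each list at most 3 called genes of smallest p were to be named, and not all of these are. List counts without a library that stands apart were added after seeing the data. Members and lists were chosen with earlier results of these data known. The limit given for a count of 0 covers counting error only.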

Additional observations from a re-analysis of the deposited data

How the results depend on the processing

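No member was called in the 3 comparisons of genotypes, in ΔEP treated against mock skin or in the 3 interactions under any alternative. For fl/fl tumors against mock skin, where 1 member was called, DESeq2, the edgeR exact test, the single fit and no low-count filter gave 2, with Atf3 added, and leaving out libraries gave 0 to 3. For fl/fl tumors against treated skin (1 called) leaving out libraries gave 1 to 3. For ΔEP tumors against mock skin (3 called) the replicate block gave 1, Jdp2, and leaving out libraries gave 0 to 7. For ΔEP tumors against treated skin (2 called) the replicate block gave 1, Fosl1, and leaving out libraries gave 1 to 4, with 4 without treated replicate 2. For fl/fl treated against mock skin (0 called) they gave 0 to 1. The share of all genes called moved between fits as well, so these counts are not a result about the members alone. In fl/fl tumors against mock skin 2.22% of all genes rose and 1.88% fell with all libraries. Without mock fl/fl replicate 1 it was 9.45% and 11.5%. Fosl1 in ΔEP tumors against mock skin was called by DESeq2 and the exact test, with adjusted p of 0.00333 and 0.0126, and in the single fit, without the filter and with the identical columns counted as 2. Where a group was left with 1 library, that library was assumed to vary like the others, and apart from fewer libraries the cause of these changes was not tested. Fosb in ΔEP tumors against mock skin ran from -1.41 to 0.54 over the libraries left out. Of 108 differences of members, 40 changed sign in some alternative, and none of these was called with all libraries. Same-numbered libraries deviated together in mock skin of the 2 genotypes (correlations 0.782 and 0.569). In treated skin of the 2 genotypes the correlations ran from -0.546 to -0.125. The highest outside mock skin of the 2 genotypes was 0.569, for replicate 1 of ΔEP treated and mock skin. Nothing in the labels pairs same-numbered libraries, and a shared preparation was not tested. The 2 values in mock skin are not independent, because the 2 mock ΔEP libraries deviate from their mean by equal and opposite amounts. With the block, Fosl1 in mock skin had a log2 fold change of 0.88 between genotypes with an edgeR adjusted p of 0.0416, under 2-fold. Jdp2 and Batf are limited by depth.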
